A study of Mus musculus with 12 samples.

Results

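The genes described here encode the conjugation enzymes of the liver that belong to 3 families, the glutathione S-transferases (Gst), the UDP-glucuronosyltransferases (Ugt) and the cytosolic sulfotransferases (Sult). A gene was included when it was protein-coding, its symbol carried one of these family names with a class letter and number, and it had at least 10 counts in at least 6 of the 12 libraries. Of 56205 genes in the count table, 64 protein-coding genes carried such a name and 50 met the count rule, namely 20 Gst, 17 Ugt and 13 Sult genes. The livers came from ob/ob mice (B6.Cg-Lepob/J), which are obese for want of leptin, and 1 RNA library, selected for poly(A), was made from the whole liver of each mouse. Fibrotic and FLO are group names from the sample titles, and fibrosis was not scored here. The 6 Fibrotic mice had ethionine, an ethyl analogue of the amino acid methionine, added to standard chow feeding. The 6 FLO mice had standard chow without ethionine. The study describes ethionine-treated ob/ob mice as a model of microvesicular steatosis with inflammation. The labels give 0.165% ethionine in the drinking water for 2 weeks in 1 place and an injection of 0.15% in another, while the study's methods give 0.15% in the drinking water for 1 week. All mice were stated to be males, 8 to 10 weeks old when ethionine began, and both groups lacked leptin, so the comparison is of ethionine within an obese fatty liver and holds no lean mouse.

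Conjugation enzymes attach a large polar group to a drug, hormone, bile pigment or reactive compound, which makes it soluble and ready for export into bile or urine. Glutathione S-transferases join the tripeptide glutathione to electrophiles, UDP-glucuronosyltransferases join glucuronic acid taken from UDP-glucuronic acid, and sulfotransferases join a sulfate group taken from the donor PAPS. Hepatocytes are the main site of all of these reactions, and many of the genes are known targets of the receptors and factors that sense foreign compounds, such as Nfe2l2 (Nrf2), Ahr and Nr1i3 (CAR). In mouse liver several Sult genes are also known to be expressed at different levels in males and females.

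Total counts per library ran from 17815568 to 24814263. Xist, made from the inactive X chromosome of females, had 3773 counts in FLO replicate 3 and 0 to 4 in the other 11 libraries, so this library went against the stated sex. It was kept in its labelled group, and results that rest on it are given with and without it. Within the Fibrotic group, replicate 4 was the lowest library for 15 of the 20 Gst genes and had the highest TMM scaling factor of the 12 libraries. Since these are whole livers, fewer hepatocytes and less RNA per hepatocyte cannot be told apart. The labels give separate mice but no cages or batches, and p-values measure the spread between these mice.

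Of the 50 members, 49 passed the low-count filter of the fit across all genes. A gene was called when the edgeR quasi-likelihood test gave a Benjamini-Hochberg adjusted p of 0.01 or less over all genes tested and the log2 fold change exceeded 0.5 in size. Among the 49, 24 members were called, which is 49.0%, beside 29.9% of all 13416 genes tested. Of these, 9 were higher in Fibrotic livers (18.4%, beside 15.9% of all genes) and 15 were lower (30.6%, beside 14.0% of all genes). The CPM ranges of the groups (counts per 1000000 of the TMM-scaled library) did not overlap for 20 of the 49 members, or 40.8%, where this held for 30.4% of all genes tested. The median log2 fold change over the 49 was -0.19, and over all genes tested it was 0.03.

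Of the families, only Ugt had a called share far from the 29.9% of all genes tested, and the Gst and Sult shares were near it. The Ugt family had 14 of 17 members called (82.4%), 5 higher and 9 lower, with a median log2 fold change of -0.84. The Gst family had 7 of 20 called (35.0%), 3 higher and 4 lower, with a median of -0.17. The Sult family had 3 of 12 tested members called (25.0%), 1 higher and 2 lower, with a median of -0.27. The Sult median turned to 0.17 without FLO replicate 3 and to 0.04 with the replicate number as a block. In every family, members with a called rise and members with a called fall were found side by side, often in the same gene cluster. No test compares one family with another here, since members of a cluster share sequence and neighbourhood and are not independent.

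**Figure D1:**
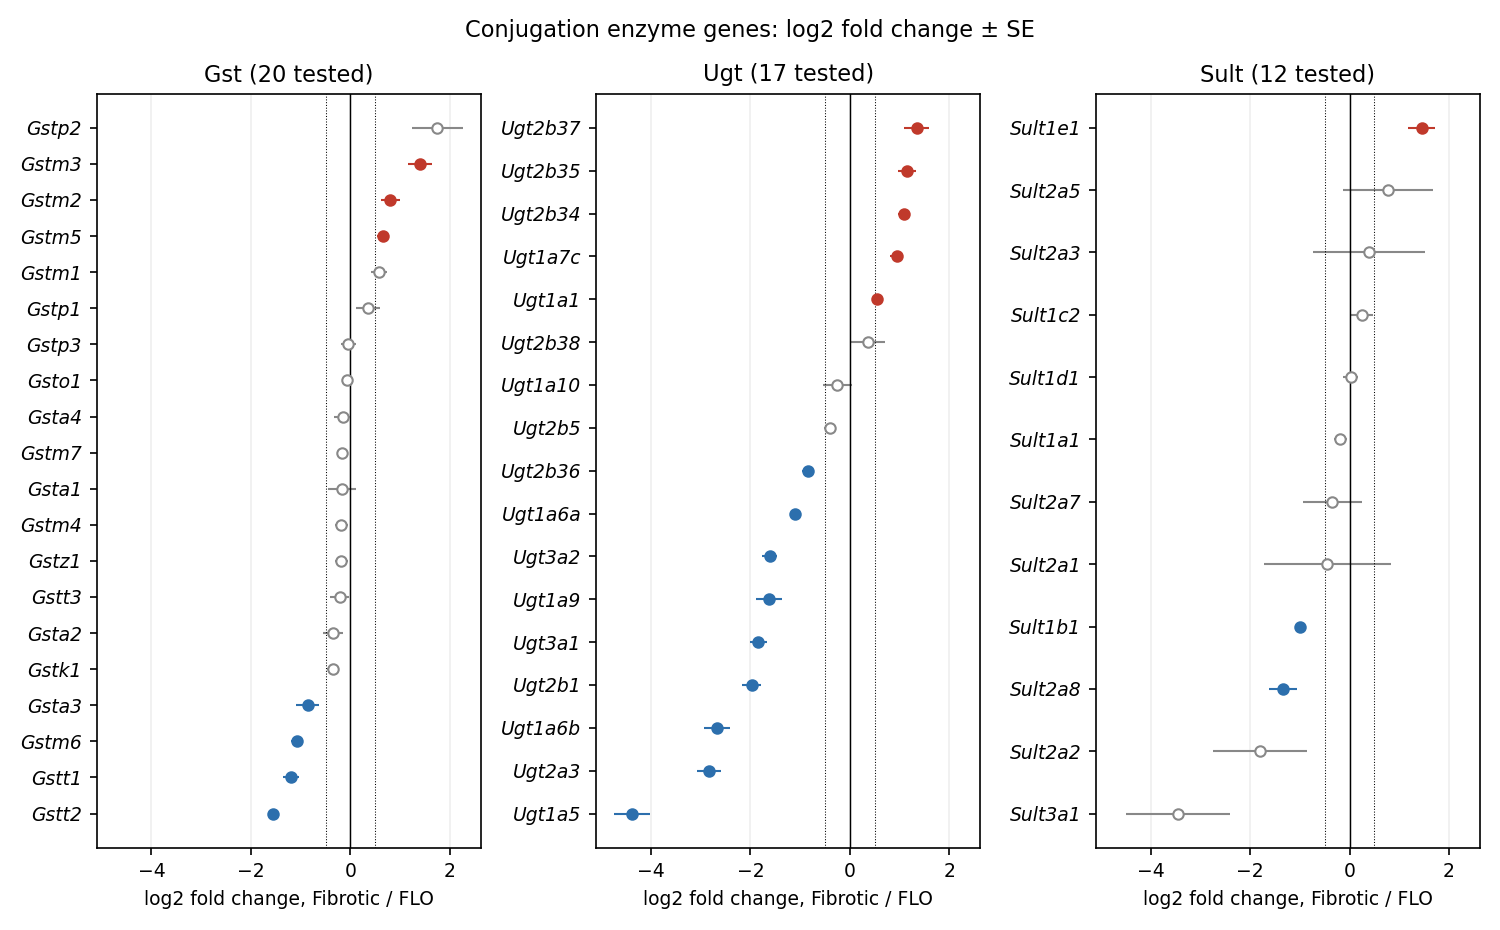
Log2 fold change of each tested member (x axis, Fibrotic over FLO, with its SE as a bar), by family. Filled red points are the 9 members called higher, filled blue points the 15 called lower and open grey points those not called, and dotted lines mark the fold-change threshold of 0.5. The Ugt panel spans -4.38 (Ugt1a5) to 1.34 (Ugt2b37), a wider range than the Gst panel, and the longest bars belong to Sult2a genes and Sult3a1.

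The Ugt1a genes lie in 1 locus, chr1:88055388-88220002 (GRCm38, GENCODE M21 gene models, + strand). Each Ugt1a gene is known for a first exon of its own, which encodes the part of the enzyme that binds the substrate. All of them share the later exons. In the gene models used here, however, the longest coding sequences of Ugt1a6a and Ugt1a7c are identical. The start sites follow each other in the order Ugt1a10, Ugt1a9, Ugt1a7c, Ugt1a6b, Ugt1a6a, Ugt1a5 and Ugt1a1, and each first exon has a promoter of its own. The 250 bases before the RefSeq start site are shown for the 5 called Ugt1a genes that have an entry in the RefSeq promoter table (GRCm38.p6), because these neighbours moved in opposite directions. Capitals mark a match to an element of the hepatocyte factor HNF1 (GTTAAT, any base, then ATT) or to TNGCGTG, the core of the element bound by Ahr, on either strand.
Ugt1a9, chr1:88070529-88070778, + strand: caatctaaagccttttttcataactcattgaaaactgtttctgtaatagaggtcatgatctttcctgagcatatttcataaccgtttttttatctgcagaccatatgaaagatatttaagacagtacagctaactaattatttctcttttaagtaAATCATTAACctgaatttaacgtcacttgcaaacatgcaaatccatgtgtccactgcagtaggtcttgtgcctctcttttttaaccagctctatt
Ugt1a7c, chr1:88094751-88095000, + strand: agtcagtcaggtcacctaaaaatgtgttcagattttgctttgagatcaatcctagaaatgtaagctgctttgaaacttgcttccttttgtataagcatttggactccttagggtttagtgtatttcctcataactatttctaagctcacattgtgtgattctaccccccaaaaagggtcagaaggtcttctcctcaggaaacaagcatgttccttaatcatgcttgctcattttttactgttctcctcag
Ugt1a6a, chr1:88134559-88134808, + strand: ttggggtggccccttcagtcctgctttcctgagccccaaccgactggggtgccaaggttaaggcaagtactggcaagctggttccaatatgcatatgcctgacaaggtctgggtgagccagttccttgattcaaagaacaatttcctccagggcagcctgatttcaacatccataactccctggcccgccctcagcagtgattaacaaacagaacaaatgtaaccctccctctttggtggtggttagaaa
Ugt1a5, chr1:88165762-88166011, + strand: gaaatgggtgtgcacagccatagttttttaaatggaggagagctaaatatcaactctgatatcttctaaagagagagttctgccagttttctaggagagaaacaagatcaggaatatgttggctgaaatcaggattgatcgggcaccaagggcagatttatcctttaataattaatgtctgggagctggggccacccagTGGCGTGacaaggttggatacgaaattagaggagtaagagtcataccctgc
Ugt1a1, chr1:88211709-88211958, + strand: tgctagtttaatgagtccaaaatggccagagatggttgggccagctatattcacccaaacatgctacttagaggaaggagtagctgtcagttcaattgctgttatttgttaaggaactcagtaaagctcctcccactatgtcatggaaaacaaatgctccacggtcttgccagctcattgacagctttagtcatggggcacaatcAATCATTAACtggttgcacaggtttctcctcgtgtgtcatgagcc

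The HNF1 letters stood in the promoters of Ugt1a1, Ugt1a9 and Ugt1a10, starting 45, 95 and 75 bases before the start site. Ugt1a1 rose and Ugt1a9 fell, so genes with this match moved in both directions. Among the 43 members with a promoter entry, 6 held the HNF1 letters (13.95%), beside 0.44% of all 27025 genes with an entry. The other 3 were Sult1d1, Sult2a3 and Sult2a5. These 6 are not independent. Ugt1a9 and Ugt1a10 are 95.3% identical in coding sequence, Sult2a3 and Sult2a5 93.5%, and each pair has similar letters around the match. The TNGCGTG core was found in 3 members, Ugt1a5, Gsta2 and Sult1d1 (6.98%, beside 4.76% of all genes). Of 3 further motifs searched on both strands, the antioxidant response element core TGACNNNGC was in Gsta3, Gstm5 and Gstm7 (6.98%, beside 11.5%), TATAAA was in 6 members (13.95%, beside 14.3%), and AGGNCA repeated directly after a gap of 1 base, an element of nuclear receptor dimers, was in 0 members (beside 0.40%). Matches of the different motifs did not overlap in the sequences shown. A match is a description of letters in this window and does not show that a factor binds there.

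Most Ugt1a transcripts fell while Ugt1a1, the enzyme that conjugates bilirubin, rose. Ugt1a5 had the largest fall of all members. It ran from 127 to 378 CPM (median 157) in FLO and from 3.98 to 16.2 CPM (median 9.02) in Fibrotic libraries, and the groups were far apart. Its log2 fold change was -4.38 (adjusted p = 9.83e-07, SE 0.37), and without FLO replicate 3, the highest FLO library for this gene, it was -4.07.

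Ugt1a6b and Ugt1a6a, which encode enzymes of small planar phenols, also fell without overlap of the groups. For Ugt1a6b the FLO libraries held 144 to 177 CPM (median 161) and the Fibrotic libraries 9.36 to 44.0 CPM (median 25.2), with a log2 fold change of -2.67 (adjusted p = 2.39e-06, SE 0.26). Ugt1a6a was at 169 to 215 CPM in FLO and 80.3 to 92.1 CPM in Fibrotic livers, a log2 fold change of -1.10 (SE 0.08). Ugt1a9 ran from 205 to 604 CPM (median 482) in FLO and from 88.3 to 211 CPM (median 139) in Fibrotic libraries. The overlap of Ugt1a9 came from FLO replicate 3 alone, at 205 CPM, while the other FLO libraries held at least 389 CPM. Its log2 fold change was -1.63 (adjusted p = 0.00013, SE 0.26) with that library and -1.78 without it.

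Ugt1a1 was measured at 568 to 702 CPM (median 667) in FLO and 743 to 1142 CPM (median 973) in Fibrotic libraries. Every Fibrotic library was above every FLO library, with a log2 fold change of 0.54 (adjusted p = 0.000593, SE 0.11). The size of this rise was close to the threshold, and without Fibrotic replicate 1 it was 0.48 and no longer called. Ugt1a7c rose from 5.68 to 8.44 CPM (median 7.03) in FLO to between 9.92 and 15.6 CPM (median 14.6) in Fibrotic libraries, a log2 fold change of 0.94 (adjusted p = 3.24e-05, SE 0.13). Ugt1a10 was low in both groups, under 6 CPM in every library, and was not called (-0.26, adjusted p = 0.483).

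The summed CPM of the 7 Ugt1a genes was 1528 to 1860 in FLO and 1115 to 1361 in Fibrotic libraries. With TMM scaling the groups did not overlap, and with raw library totals they did. The make-up of that sum differed more than its size. Ugt1a1 took 36.2 to 42.8% (median 40.8%) of the Ugt1a counts in FLO and 66.7 to 83.9% (median 77.7%) in Fibrotic libraries. Ugt1a9 went from a median share of 29.5% to 11.1%, Ugt1a6b from 9.75% to 2.13%, and Ugt1a5 from 9.66% to 0.70%. In FLO replicate 3, Ugt1a5 held 22.7% and Ugt1a9 12.3%, the highest and the lowest FLO shares of those genes.

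**Figure D2:**
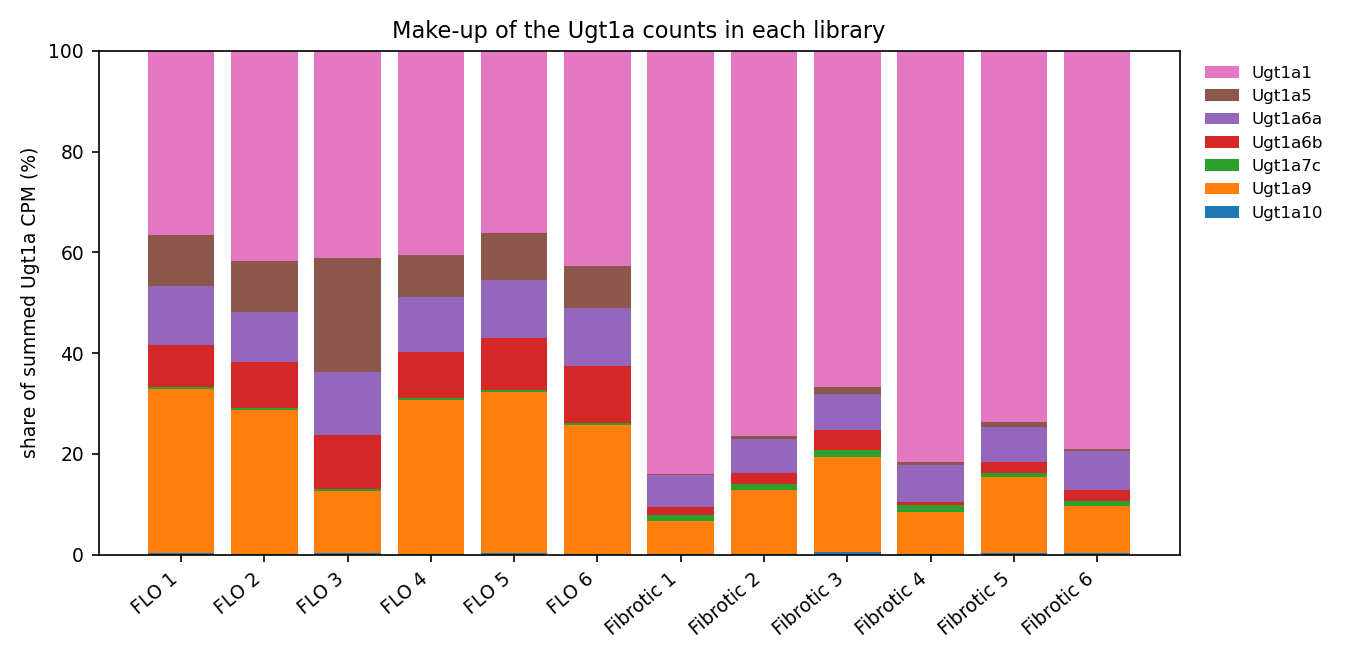
Share of the summed Ugt1a CPM (y axis, percent) that each Ugt1a gene took in each of the 12 libraries (x axis). Segments are stacked in the order of the start sites, from Ugt1a10 at the bottom to Ugt1a1 at the top, and the Ugt1a1 segment holds 36.2 to 42.8% in FLO and 66.7 to 83.9% in Fibrotic libraries.

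These Ugt1a values depend on how reads of the shared exons were assigned, which the sources used here do not state. Of the 31-base words in the Ugt1a1 transcript, untranslated parts included, 18.7% occur in no other gene. The share is 34.7% for Ugt1a5, 32.2% for Ugt1a9, 14.9% for Ugt1a6b and 0.0% for Ugt1a6a, whose words all occur in the Ugt1a7c gene model. Summed as 1 gene, the Ugt1a counts had a log2 fold change of -0.42 (adjusted p = 0.00116, SE 0.09), which passes the p threshold but not the fold threshold.

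The Ugt2 genes on chromosome 5 conjugate steroids, bile acids and drugs, and they too moved in both directions. Ugt2a3 fell most, from 141 to 223 CPM (median 180) in FLO to between 17.6 and 46.7 CPM (median 20.4) in Fibrotic libraries, a log2 fold change of -2.83 (adjusted p = 4.01e-07, SE 0.23). Ugt2b1 held 268 to 460 CPM (median 309) in FLO and 58.5 to 119 CPM (median 86.5) in Fibrotic livers, with a log2 fold change of -1.97 (adjusted p = 8.74e-07, SE 0.19). Ugt2b36 was lower by a smaller amount, at -0.84 (SE 0.12), and its groups did not overlap either.

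In the same cluster Ugt2b34, Ugt2b35 and Ugt2b37 rose. For Ugt2b34, FLO libraries held 256 to 443 CPM (median 345) and Fibrotic libraries 662 to 801 CPM (median 691), a log2 fold change of 1.08 (adjusted p = 3.3e-06, SE 0.12). Ugt2b35 was at 98.7 to 223 CPM (median 131) in FLO and 265 to 419 CPM (median 309) in Fibrotic libraries, with a log2 fold change of 1.15 (adjusted p = 0.000105, SE 0.18). Ugt2b34 lies next to Ugt2b1 in this cluster, and the former rose without overlap while the latter fell without overlap. Over 94% of the 31-base words of Ugt2b34, Ugt2b35 and Ugt2b1 occur in no other gene. Ugt2b37 was low, 1.26 to 2.72 CPM in FLO and 2.48 to 6.74 CPM in Fibrotic libraries, and its log2 fold change was 1.34 (adjusted p = 0.000362, SE 0.25).

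Ugt2b5, the Ugt gene with the second highest mean CPM, held 735 to 1087 CPM (median 810) in FLO and 513 to 787 CPM (median 635) in Fibrotic libraries. The ranges overlapped and the gene was not called (-0.39, SE 0.12, adjusted p = 0.0135). Its coding sequence is 94.7% identical to that of Ugt2b37 and 97.0% identical to that of Ugt2b38, which was near 1 CPM and not called (0.37, adjusted p = 0.383). Of the 31-base words of Ugt2b37, 65.6% occur in no other gene and 25.9% are shared with Ugt2b5, so its value is uncertain.

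Ugt3a1 and Ugt3a2, neighbours on chromosome 15 whose enzymes use sugar donors other than glucuronic acid, fell together. Ugt3a1 ran from 128 to 185 CPM (median 152) in FLO and from 26.6 to 62.6 CPM (median 41.5) in Fibrotic libraries, a log2 fold change of -1.84 (adjusted p = 9.87e-07, SE 0.18). Ugt3a2 changed by -1.61 (SE 0.15), from a median of 473 CPM to 152 CPM. The coding sequences of the pair are 93.2% identical, and summed they had a log2 fold change of -1.67 and were called. Over the whole family, summed Ugt CPM was 4197 to 5725 in FLO and 3412 to 3776 in Fibrotic libraries. The groups did not overlap with TMM scaling but did with raw library totals.

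**Figure D3:**
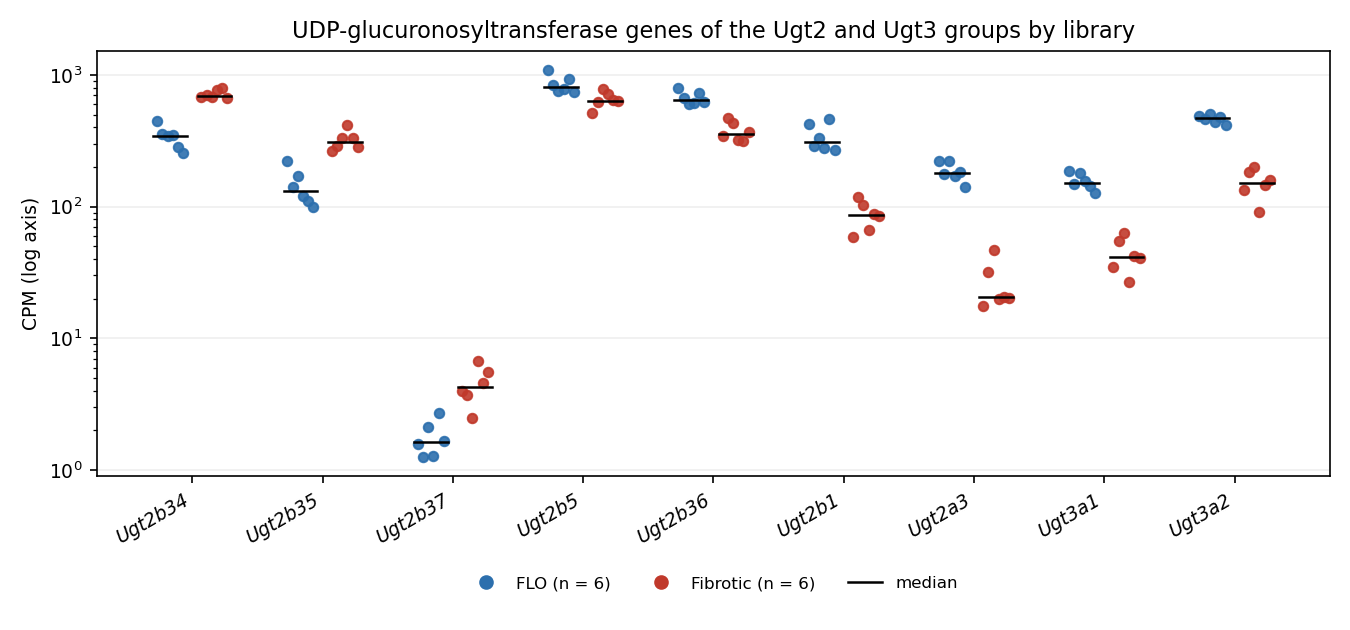
CPM (log axis) of the Ugt2 and Ugt3 genes named in the text, with 1 point per library, FLO in blue and Fibrotic in red, and the group median as a black bar. Ugt2b34 and Ugt2b35 lie higher in all 6 Fibrotic libraries, whereas Ugt2b36, Ugt2b1, Ugt2a3, Ugt3a1 and Ugt3a2 lie lower in all 6.

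Among glutathione transferases, the mu class (Gstm) held the called rises and the theta class (Gstt) the largest falls. The 7 Gstm members form a cluster at chr3:107895821-108044894. Per kilobase of the transcript with the longest coding sequence, Gstm1 had the highest level of all 50 members in both groups. Its mean was 7032 CPM per kilobase in FLO and 10475 in Fibrotic livers. Gstm3 moved from the 4th to the 2nd highest level on this scale, at 758 and 1996 CPM per kilobase, and Gsta3 from the 2nd to the 4th, at 1141 and 629.

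Gstm3 ran from 585 to 1575 CPM (median 838) in FLO and from 1566 to 3252 CPM (median 2734) in Fibrotic libraries. The groups overlapped only in that FLO replicate 1, at 1575 CPM, was just above Fibrotic replicate 4, at 1566 CPM. Its log2 fold change was 1.40 (adjusted p = 0.000172, SE 0.23), and it was called in all 12 fits that left out 1 library. Gstm2 had 252 to 372 CPM (median 294) in FLO and 245 to 646 CPM (median 552) in Fibrotic libraries, with a log2 fold change of 0.80 (adjusted p = 0.00281, SE 0.19). Of the Fibrotic libraries, 5 were above all FLO libraries for Gstm2, and Fibrotic replicate 4 was below them all. Gstm5, a low-level member, rose from 7.33 to 11.1 CPM in FLO to between 11.5 and 17.7 CPM in Fibrotic libraries, without overlap (0.66, SE 0.12, adjusted p = 0.000316).

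Gstm1 itself stood at the threshold. It held 4324 to 9285 CPM (median 5206) in FLO and 7119 to 9668 CPM (median 9029) in Fibrotic libraries, with a log2 fold change of 0.58 (adjusted p = 0.0103, SE 0.17). All 6 Fibrotic libraries were above the FLO median, and the 1 FLO library within the Fibrotic range was replicate 1. Gstm1 was called in 2 of the 12 fits without 1 library. Without FLO replicate 1 the log2 fold change was 0.76 (adjusted p = 0.000248), and without Fibrotic replicate 4 the adjusted p was 0.00566. Without FLO replicate 3, the lowest FLO library for this gene, the log2 fold change was 0.50 and was not called (adjusted p = 0.0252). The summed CPM of the Gst family, in which Gstm1 was the largest part, was 10934 to 18211 (median 16119) in Fibrotic and 9647 to 16761 (median 10662) in FLO libraries, and these ranges overlapped.

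In contrast to Gstm3, which lies next to it, Gstm6 fell, with a log2 fold change of -1.07 (adjusted p = 3.48e-06, SE 0.12). It held 105 to 152 CPM (median 125) in FLO and 49.7 to 78.7 CPM (median 57.2) in Fibrotic libraries. Gstm4 (-0.18, adjusted p = 0.281) and Gstm7 (-0.16, adjusted p = 0.244), also of this cluster, were not called. The cluster thus held 3 genes called higher, 1 called lower and 3 not called. The uncertain members are Gstm1 and Gstm3, of whose 31-base words 53.4% and 62.3% occur in no other gene, most of the rest being shared with pseudogenes.

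Gstt1 and Gstt2, theta-class genes whose enzymes act on small halogenated compounds and sulfate esters, fell without overlap. Gstt2 was at 60.4 to 70.8 CPM (median 66.9) in FLO and 18.0 to 27.6 CPM (median 22.0) in Fibrotic libraries. Its log2 fold change of -1.56 (adjusted p = 2.43e-08, SE 0.10) was the largest fall of the Gst family. Gstt1 held 261 to 336 CPM (median 286) in FLO and 68.4 to 172 CPM (median 133) in Fibrotic libraries, a log2 fold change of -1.19 (adjusted p = 3.35e-05, SE 0.17). Gstt3, between 130 and 298 CPM in all libraries, was not called (-0.21, adjusted p = 0.369).

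Gsta3, an alpha-class gene whose enzyme is known in mice for the detoxication of aflatoxin epoxide, fell from 1460 to 1888 CPM (median 1675) in FLO to between 347 and 1373 CPM (median 909) in Fibrotic libraries. The groups did not overlap, and the log2 fold change was -0.86 (adjusted p = 0.00566, SE 0.23). The call was lost in 7 of the 12 fits without 1 library, where the adjusted p reached 0.0138 and the log2 fold change stayed between -1.01 and -0.68. Those libraries were Fibrotic replicates 1, 5 and 6 and FLO replicates 1, 2, 3 and 5. The other alpha-class genes, Gsta1 (-0.17), Gsta2 (-0.34) and Gsta4 (-0.16), were not called, and their ranges overlapped. For Gsta1, only 7.8% of its 31-base words are its own, and its value is uncertain.

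The pi-class gene Gstp1 varied between mice in both groups, from 412 to 1142 CPM in FLO and from 495 to 1320 CPM in Fibrotic libraries. It was not called (0.36, adjusted p = 0.227). The value of 412 CPM was that of FLO replicate 3, and the other FLO libraries held 698 to 1142 CPM. Without FLO replicate 3 the log2 fold change was 0.23 (adjusted p = 0.398). Gstp2, 98.1% identical to Gstp1 in coding sequence, was far lower, at 4.42 to 15.1 CPM in FLO and 6.85 to 57.1 CPM in Fibrotic libraries. It had the largest positive log2 fold change of the family, 1.75 (SE 0.52), but missed the threshold (adjusted p = 0.0141). The Gstp2 call was made without Fibrotic replicate 3 (adjusted p = 0.00431) or FLO replicate 5 (adjusted p = 0.00688). DESeq2 also called it (1.72, adjusted p = 0.00313). Of its 31-base words 21.9% occur in no other gene and 69.6% are shared with Gstp1, so the value of Gstp2 is uncertain. For Gstp1 these shares are 32.5% and, with Gstp2, 67.5%. Gstk1 (-0.35), Gstz1 (-0.19), Gsto1 (-0.08) and Gstp3 (-0.04), of other classes or copies, were not called, with adjusted p from 0.0249 to 0.84.

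**Figure D4:**
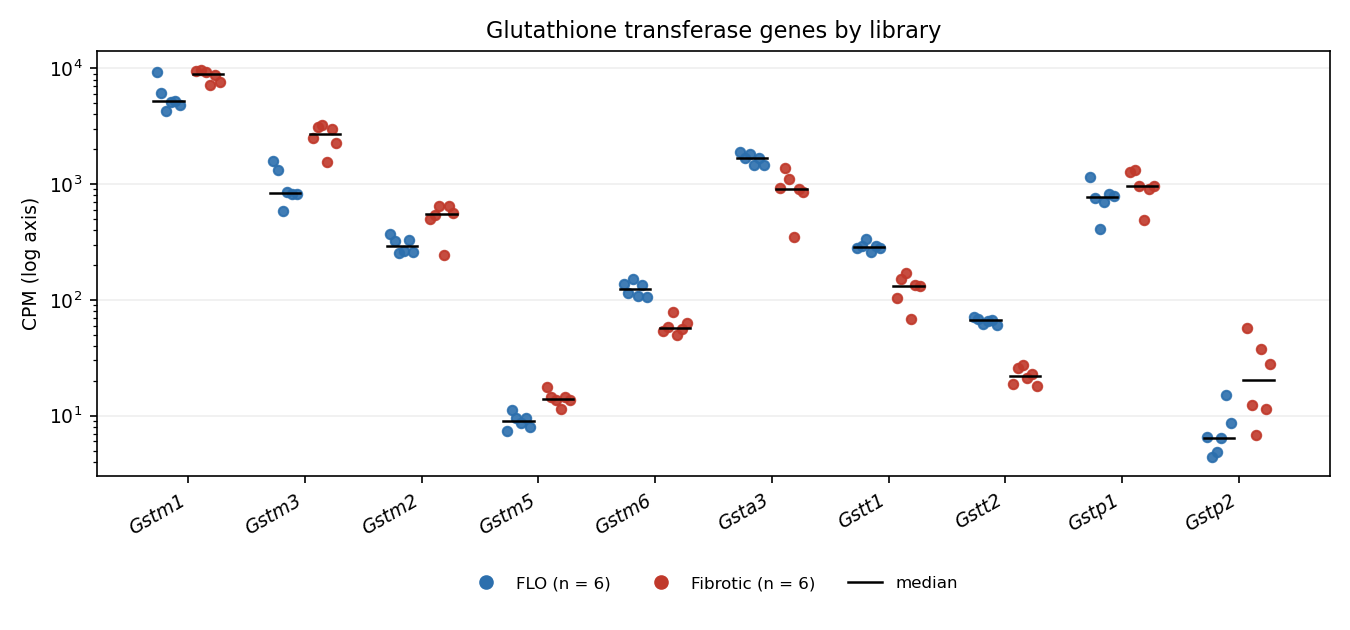
CPM (log axis) of 10 Gst genes, with 1 point per library, FLO in blue and Fibrotic in red, and the group median as a black bar. Gstm1 has the highest values, Gstm3 lies at 585 to 1575 CPM in FLO and 1566 to 3252 CPM in Fibrotic libraries, and Gstt1 and Gstt2 lie lower in all 6 Fibrotic libraries.

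Of the 12 tested sulfotransferase genes, Sult1e1 rose, Sult1b1 and Sult2a8 fell, and 9 were not called. Sult1e1, which inactivates estrogens by sulfation, was at 18.8 to 66.2 CPM (median 61.6) in FLO and 94.6 to 184 CPM (median 141) in Fibrotic libraries. The groups did not overlap, and the log2 fold change was 1.45 (adjusted p = 0.00048, SE 0.27). FLO replicate 1 was the lowest library by far, and without it the change was 1.28 and still called. Sult1b1, a thyroid hormone sulfotransferase and a neighbour of Sult1e1 on chromosome 5, fell from 23.6 to 29.8 CPM (median 24.0) to between 10.1 and 15.6 CPM (median 12.4), a log2 fold change of -0.99 (adjusted p = 3.77e-06, SE 0.11). Sult1d1, which lies between them, was at 70.1 to 97.5 CPM in FLO and 61.7 to 113 CPM in Fibrotic libraries, with a log2 fold change of 0.02 (adjusted p = 0.924).

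Sult1a1, the phenol sulfotransferase and the Sult gene with the highest mean CPM, held 244 to 355 CPM (median 306) in FLO and 203 to 352 CPM (median 265) in Fibrotic libraries, and was not called (-0.19, SE 0.13, adjusted p = 0.232). Sult1c2 was low and not called either (0.25, adjusted p = 0.369).

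The Sult2a genes, whose enzymes sulfate hydroxysteroids and bile acids, form a cluster on chromosome 7 and varied between mice more than any other subfamily. Their median SD of log2 CPM was 2.20 in FLO and 1.05 in Fibrotic libraries, where the Gst family had 0.23 and 0.37. Sult2a8 was the 1 member called, at 65.5 to 183 CPM (median 98.8) in FLO and 27.8 to 59.0 CPM (median 44.5) in Fibrotic libraries, with a log2 fold change of -1.33 (adjusted p = 0.00131, SE 0.28). With the replicate number as a block the change was -1.26 and the call was lost (adjusted p = 0.0123). It is also the only one of the Sult2a genes whose groups did not overlap, and all of its 31-base words are its own.

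No other Sult2a gene was called with or without FLO replicate 3, but their values moved with that library. Sult2a1 was at 274 CPM in that library and at 0.118 to 29.8 CPM in the other 5 FLO libraries, against 8.16 to 109 CPM in Fibrotic libraries. Its log2 fold change was -0.44 (adjusted p = 0.79, SE 1.27) with the library and 1.95 without it (adjusted p = 0.134). Sult2a2 was at 362 CPM in FLO replicate 3 and at 3.49 to 78.9 CPM in the others, with a log2 fold change of -1.79 (adjusted p = 0.137) that was -0.51 without that library. Sult2a7 changed sign as Sult2a1 did, from -0.35 to 0.54.

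Sult2a3 and Sult2a5 were positive in both fits, at 0.39 and 0.77 with FLO replicate 3 and at 2.56 and 2.46 without it, and their adjusted p without it, 0.0364 and 0.0104, missed the threshold. FLO replicate 5 held 0 counts of either gene, and FLO replicate 3 held 37.6 and 11.5 CPM. Sult3a1, on chromosome 10, was at 40.6 CPM in FLO replicate 3, 0.77 to 6.56 CPM in the other FLO libraries and 0.503 to 1.31 CPM in Fibrotic libraries. Its log2 fold change of -3.45 (adjusted p = 0.0159, SE 1.04) became -1.66 without FLO replicate 3 (adjusted p = 0.013), and it was called when FLO replicate 5 was left out (adjusted p = 0.009). The part of the sex pattern of FLO replicate 3 in these values was not tested. Summed Sult2a CPM in that library was 917, and the other FLO libraries lay between 143 and 204.

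**Figure D5:**
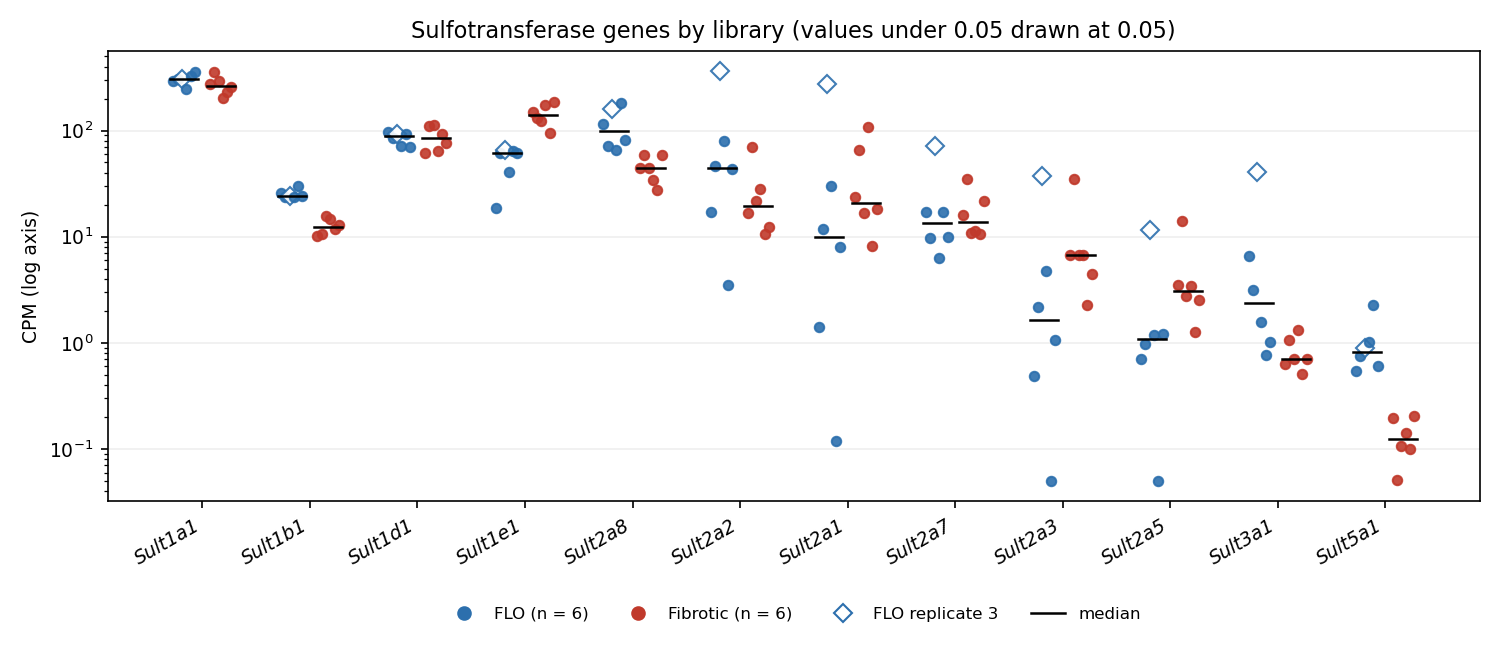
CPM (log axis) of 12 Sult genes, with 1 point per library, FLO in blue, Fibrotic in red, FLO replicate 3 as an open diamond and the group median as a black bar. Values under 0.05 CPM, 0 included, are drawn at 0.05. The open diamond is the highest FLO point for Sult2a2, Sult2a1, Sult2a7, Sult2a3, Sult2a5 and Sult3a1.

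Sult5a1 met the member rule through the FLO libraries alone, with 10 to 38 counts there and 1 to 4 counts in Fibrotic libraries, and did not pass the filter of the fit. Its difference in mean log2 CPM was -2.14. The count rule itself required such a difference here, so no test is given and the gene is in none of the counts of called members. Of the genes left out by the count rule, the nearest were Sult2b1, which had 6 to 21 counts in Fibrotic livers against 0 to 3 in FLO livers, Sult3a2, which reached 126 counts in 1 FLO library, Ugt1a8 and Ugt1a2, each with 10 or more counts in at most 2 libraries. Just inside it were Sult5a1, with 6 such libraries, and Sult2a3 and Ugt2b38, with 10 each.

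Genes that supply, accompany or regulate these enzymes were counted on lists with the same call rule, each count to be read beside the 29.9% of all genes tested that were called. Of 14 tested genes of glutathione synthesis and breakdown, 4 rose and 1 fell, with a median log2 fold change of 0.36. Gclc, the catalytic subunit of the rate-limiting enzyme of glutathione synthesis, rose from 373 ± 136 to 1444 ± 190 CPM (mean ± SD, n = 6 each), and Gss, which completes glutathione, from 103 ± 18.2 to 189 ± 21.9 CPM, log2 fold changes of 1.95 and 0.88. Ggt6 (1.56), a gamma-glutamyltransferase, and Ggct (0.91), which breaks down gamma-glutamyl peptides, were also higher, and Nat8f1 (-0.77) was lower. Of 8 other glutathione transferases, microsomal or with related roles, 1 was called higher and 1 lower, and the list median was 0.38. Mgst2 held 0 to 0.287 CPM in FLO and 2.34 to 7.52 CPM in Fibrotic libraries, a log2 fold change of 5.09. It passed the low-count filter through the Fibrotic libraries alone, which favoured its call, and is kept in the list counts. Mgst1 fell by 0.64 on the log2 scale, from 3840 ± 542 to 2466 ± 470 CPM (SD, n = 6 each).

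Of 5 genes that supply UDP-glucuronic acid or remove glucuronic acid, 0 were called by edgeR, DESeq2 or limma-voom, and 2 had an unadjusted edgeR p under 0.05 (median -0.04). Of 9 tested genes of sulfate donor supply, 2 rose, the Golgi carriers of PAPS Slc35b3 (1.27) and Slc35b2 (0.75) (median -0.18). Of 7 exporters of conjugates, Abcc4 (1.36) and Abcc5 (0.64) were higher, and Abcc6 (-1.82) and Abcc3 (-0.70) were lower (median 0.19).

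Of 15 regulators of conjugation genes, 2 were higher and 3 lower (median -0.05). Nr1i3 (CAR), a receptor that drives many of these genes, fell from 329 ± 72.9 to 28.5 ± 16.3 CPM (SD, n = 6 each), a log2 fold change of -3.53 (adjusted p = 6.47e-06, SE 0.37). Nfe2l2 rose by 1.28 and Ahr by 1.03, and Bcl6 (-0.71) was called lower with all libraries but in 3 of the 12 fits without 1 library. Of 10 known target genes of these receptors, 4 rose and 2 fell (median 0.30). The Ahr targets Cyp1a1 and Cyp1a2 moved in opposite directions, at 4.69 and -1.90. Of the Nfe2l2 targets, Srxn1 (0.79) and Hmox1 (0.72) were called higher, and Txnrd1 was not called (0.44, adjusted p = 0.0309). Nqo1 (-0.66) was called lower with all libraries and in 7 of the 12 fits without 1 library. Of the Ppara targets, Cyp4a14 rose (0.92) and Cyp4a10 was not called (-0.79, adjusted p = 0.0158), and the CAR target Cyp2b10 was not called (-0.11).

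Markers of cell types were counted beside the members. Of 9 tested hepatocyte markers, 3 were higher and 2 lower (median -0.14), and their summed CPM lay between 63139 and 100950 in Fibrotic livers, against 82329 to 95614 in FLO livers. Of 7 tested cholangiocyte markers, 5 were higher (median 1.35), with sums of 82.6 to 282 CPM against 47.4 to 89.0 CPM. That count fell to 3 without Fibrotic replicate 1, 4 or 5 and to 2 without FLO replicate 1, 2, 4 or 5. Of these markers, Cldn4 held 0.0979 to 0.533 CPM in FLO and 1.08 to 7.44 CPM in Fibrotic libraries. It passed the low-count filter through the Fibrotic libraries alone, which favoured its call, and is kept in the counts. Of 9 Kupffer cell and macrophage markers, 7 were higher (median 0.76), with sums of 296 to 615 CPM against 242 to 271 CPM. Of 7 stellate cell markers, Lrat was called higher (0.72), a call lost in 8 of the 12 fits without 1 library (without Fibrotic replicate 1, 4 or 5 or FLO replicate 1, 2, 3, 5 or 6), and the median was 0.07, with sums of 370 to 502 CPM in Fibrotic and 349 to 430 CPM in FLO libraries. Of 10 pericentral and 8 periportal hepatocyte genes, 4 in each list were lower (medians -0.61 and -0.63), with pericentral sums of 3984 to 8125 CPM against 7599 to 10079 CPM and periportal sums of 4709 to 10740 CPM against 10238 to 14054 CPM. The part of these shifts in the falls of Ugt, Gstt and Gsta3 was not tested. Their part in the rises of Ugt2b34, Ugt2b35 and Ugt1a1 was not tested either.

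Of 4 tested sex-linked genes, 0 were called by edgeR, DESeq2 or limma-voom with all libraries, 0 had an unadjusted edgeR p under 0.05, and 2 were called when FLO replicate 3 was left out. Of 9 tested female-biased liver genes, 2 were higher and 2 lower (median 0.34), namely Cyp2a4 (2.69) and Cyp3a41a (1.99) against Cyp2b13 (-3.55) and Cyp2b9 (-1.25). The call of Cyp3a41a was made in 2 of the 12 fits without 1 library. Of 8 tested male-biased genes, 3 were higher and 1 lower (median 0.68). This count of 4 fell to 0, 1 or 2 without Fibrotic replicate 1, 2, 3, 5 or 6 or FLO replicate 1, 2, 3, 4 or 6. Across all of these lists, 57 genes were called, and 46 to 55 were called in the fits without 1 library.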

How the data were processed

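Poly(A) RNA of whole liver was sequenced from 6 Fibrotic and 6 FLO mice, and groups and replicate numbers were read from the sample titles. The unit of the table that the authors deposited is the read count of each Ensembl gene in each library, as whole numbers that were not normalized. The submitters' processing notes name STAR 2.7.3a, bcl2fastq and the build mm10. The annotation release, the treatment of reads that match several genes and the use of strand are not given in the sources used here. Symbols were found for 51745 identifiers, and the rest had 0.0587% of the counts. Protein-coding status, positions, transcript lengths and coding sequences came from GENCODE M21 (GRCm38), and promoters from RefSeq (GRCm38.p6), which matched 43 of the 50 members.

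Tests were run in R 4.3.3 with edgeR 4.0.16 (robust quasi-likelihood, TMM, filterByExpr, Benjamini-Hochberg over 13416 genes), with a call at an adjusted p of 0.01 or less and a log2 fold change over 0.5 in size, the thresholds of the study's methods. SE is the log2 fold change divided by the square root of F. CPM uses TMM-scaled library sizes, and log2 CPM a prior count of 2. Library totals were 17815568 to 24814263 counts. Libraries of 1 group differed beyond sampling noise (smallest chi-square per degree of freedom 11.1). Same-numbered libraries did not deviate together (correlation -0.162 to 0.104), so numbers were not used as pairs.

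The fit was tested on simulated data. Per-library values were given for the 5 largest and 5 smallest called changes and the 2 highest mean CPM of each family and for members whose call turned on 1 library. Other members were named with their values, and of the lists up to 4 called genes each. Nat8f1, Nqo1, Hmox1, Txnrd1, Cyp4a10 and Cyp2b10 were added once their values were seen. Some list genes are not reported here, and list values leave them out. The members, lists, motifs and tests were chosen with earlier results of these data known. Alternatives were RLE and upper quartile scaling, TMM with the 50 most counted genes removed, 2 other low-count filters (none, or 10 counts in all 12 libraries), DESeq2 1.42.0, limma-voom (limma 3.58.1), a replicate block, other thresholds, raw library totals for summed CPM, and leaving out each library. Summing members with at least 90% coding identity, and all Ugt1a genes, was added after the data were examined. An exact permutation test that was planned for members that failed the filter is not reported, since the count rule chose the only such member, Sult5a1, by its difference.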

Additional observations from a re-analysis of the deposited data

Results flagged for a closer look

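Every member was checked, and so were the sums of all members, of each family and of each subfamily with more than 1 member. In each group of 6, the gap between the highest or lowest library and the next one was divided by the group's log2 CPM range. Of 124 such groups, 9 had a ratio at or past the limit of 0.625 at either end. About 1 in 20, or 6.2, would do so by chance. The sums hold the members, so these groups are not independent.

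FLO replicate 3 was the highest FLO library for summed Sult CPM (ratio 0.747), for summed Sult2a CPM (ratio 0.808) and for Ugt1a5 (ratio 0.63). It is also the library with counts of Xist. Fibrotic replicate 4 was the lowest Fibrotic library for Gsta3 (ratio 0.658) and Gstm2 (ratio 0.73). FLO replicate 1 was the highest FLO library for Gstm4 (ratio 0.749) and for the summed CPM of all members (ratio 0.625). Gsto1 was lowest in FLO replicate 2 (ratio 0.657), and Sult1b1 was highest in FLO replicate 5 (ratio 0.646).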

How the results depend on the processing

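The number of members called was 24 and ran from 17 with a log2 fold change over 1 to 27 with DESeq2, and from 22 to 25 in the fits without 1 library. Gst calls went from 7 to 4 with a log2 fold change over 1, and Sult calls from 3 to 4 with DESeq2, which added Sult3a1. With near-identical copies summed, 16 of 36 units were called, Ugt calls were 6 of 8 units and the Ugt median was -0.63. The same alternative planned on RefSeq proteins was not run, because such proteins were not used here. With raw library totals, the log2 ratio of summed CPM was -0.23 in place of -0.41 for the Ugt family. It was -0.24 in place of -0.42 for Ugt1a and 0.055 in place of -0.13 for Ugt2b. The groups' ranges of summed Ugt and Ugt1a CPM, apart with TMM, overlapped with raw totals. Every log2 fold change would be 0.18 higher with raw totals than with TMM. The replicate block gave 24 calls, lost that of Sult2a8 (adjusted p = 0.0123) and gained that of Gstm1, and its Sult median was 0.039 (main -0.27), where that median was 0.17 without FLO replicate 3.

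Of the 49 members tested, 37 kept direction and side of the threshold under every alternative to the main fit, other thresholds and summed copies apart. Members that turned direction were not called in either fit. Sult1d1 was -0.0082 with upper quartile, -0.0079 with limma-voom and -0.0067 with the replicate block, and ran from -0.065 to 0.10 without 1 library. Sult2a1 was 1.65 with limma-voom and 1.71 with the block, and ran from -1.04 to 1.95. Sult2a7 was 0.0052 and 0.085 in the same fits, and ran from -0.66 to 0.54. Gsta1 (-0.39 to 0.0079), Gstp3 (-0.13 to 0.074) and Sult2a3 (-0.54 to 2.56) turned without 1 library, which was FLO replicate 1, Fibrotic replicate 2 and Fibrotic replicate 2. Gsta3 lost its call with no low-count filter (adjusted p = 0.0195), and Gstm1 was called with every test, filter or scaling other than RLE and TMM without the top genes. The cause was not tested. At this depth, members under about 1 CPM rest on few counts.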
